A study of Mus musculus with 12 samples.

Results

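The genes examined here were Lcn2, Fga, Fgb, Fgg, Saa3, Hp, Cp and Lbp, 8 of the 52962 genes in the count table, matched by gene symbol. They encode lipocalin 2, the α, β and γ chains of fibrinogen, serum amyloid A3, haptoglobin, ceruloplasmin and lipopolysaccharide-binding protein. The 8 genes were chosen by name with earlier results on these samples known, Lcn2 and Fgb being among the largest rises with age, so their own age changes are given below as a description and carry no p-value. Of the 8 genes, 6 passed the filter on low counts, and Saa3 and Hp did not. Levels are in CPM, read counts divided by the size of the library after scaling. Fga reached 1 CPM only at 8 weeks and Lbp passed through the non-β-cell samples, so the number of genes that passed is not itself a result.

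RNA sequencing was performed on islet cells of female NOD/ShiLtJ mice, a strain that develops autoimmune diabetes spontaneously. Islets were cultured overnight and dispersed, CD45-positive leukocytes were excluded, and cells were sorted by autofluorescence into β-cells and non-β-cells. The 4 groups crossed the sorted fraction with age, 4 or 8 weeks, and held 3 replicates each. The labels name no transgene or drug for any of them. Each replicate was a pool of 3 mice by the study's figure legends, which the sample labels do not state, and the p-values measure the spread between these samples. The study took 4 weeks as the age when myeloid cells first enter the islet and 8 weeks as the age of heavy leukocyte infiltration.

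The acute-phase response is the change in plasma proteins that follows infection or injury, in which the liver secretes more fibrinogen, serum amyloid A, haptoglobin, ceruloplasmin and lipopolysaccharide-binding protein. In hepatocytes it is driven by interleukin-6 and related cytokines, which signal through gp130 and STAT3, and by interleukin-1 and TNF, which act through C/EBP and NF-κB factors. Several of these genes can also be switched on outside the liver in epithelial and other cells exposed to cytokines, and lipocalin 2 is known to rise in islet cells treated with them.

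The fibrinogen genes lie next to each other on chromosome 3, within chr3:83007724-83049863 of GRCm38 (42.1 kb), with Fgg and Fga on the plus strand and Fgb on the minus strand. Because all of them were higher at the later age, the sequences before their starts are shown. Of the 8 genes, 6 had promoter windows in the RefSeq table for GRCm38.p6, 7 windows in all, and the 250 bases before each start were searched on both strands for a STAT palindrome (TTCNNNGAA), a C/EBP motif (TTGCNNAA) and the NF-κB consensus. Capitals mark motif matches, and the Fga window is shown up to the first base of its annotated exon, which lies 77 bases before the RefSeq start.
Fga, chr3:83025903-83026075, plus strand: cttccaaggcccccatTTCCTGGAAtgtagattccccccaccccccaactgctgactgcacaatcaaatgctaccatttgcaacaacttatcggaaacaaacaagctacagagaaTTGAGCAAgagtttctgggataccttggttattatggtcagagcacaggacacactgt
Fgb, chr3:83049864-83050113, minus strand: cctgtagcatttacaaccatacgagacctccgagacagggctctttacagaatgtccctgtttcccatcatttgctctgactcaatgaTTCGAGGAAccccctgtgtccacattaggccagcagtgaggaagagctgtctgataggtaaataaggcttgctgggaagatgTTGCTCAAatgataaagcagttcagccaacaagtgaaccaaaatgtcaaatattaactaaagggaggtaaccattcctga
Fgg, chr3:83007474-83007723, plus strand: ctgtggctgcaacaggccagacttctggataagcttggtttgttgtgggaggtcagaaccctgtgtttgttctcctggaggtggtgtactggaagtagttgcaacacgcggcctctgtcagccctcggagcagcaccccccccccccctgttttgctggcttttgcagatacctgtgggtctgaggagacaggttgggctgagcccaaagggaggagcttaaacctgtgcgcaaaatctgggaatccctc
The Fga window held the STAT palindrome 234 to 226 bases before the RefSeq start and the C/EBP motif 135 to 128 bases before it. The Fgb window held the same pair of motifs, at 162 to 154 and at 80 to 73 bases before the start. The Fgg window held none of the 3 motifs. Of the 32851 promoter windows of this length in the table, 7.02% held the STAT palindrome, 9.56% the C/EBP motif and 3.9% the NF-κB consensus. The C/EBP motif was also present in the window of Saa3 (99 to 92 bases before the start). It further occurred before the RefSeq start of Lcn2 (216 to 209 bases) and in 1 of the 2 windows of Cp, but both of those matches lie inside the annotated gene. These are matches of letters only, and binding was not measured.

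The libraries held 13755106 to 27040652 estimated counts, so that 1 count was worth 0.0377 to 0.0747 CPM and a count of 0 allows up to 0.113 to 0.224 CPM (3 counts, counting error only). The sort labels were borne out by hormone genes. β-cell markers such as Ins1, Ins2 and Mafa summed to 46300 to 112000 CPM in the β-cell samples and to 2850 to 5810 CPM in the non-β-cell samples, and all 7 were higher in β-cells at both ages. The non-β fraction carried 106000 to 136000 CPM of α-cell markers, which include Gcg, against 1520 to 9410 CPM in β-cells. Within the β fraction the β-cell marker sum was 46300 to 81200 CPM at 4 weeks and 107000 to 112000 CPM at 8 weeks, and all 6 α-cell markers fell with age. The 4-week replicates numbered 3 stood apart from their groups on the third principal component in both fractions (62.9 against 6.7 and 5.9 in β-cells, 32.7 against -17.5 and -56.4 in non-β-cells). In non-β-cells the 4-week replicate 2 also lay apart, on the second component (78 against 47.7 and 48.3). Changes of the 6 tested genes without both 4-week replicates numbered 3 are given where they are described.

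Lcn2 encodes a small secreted protein that binds iron-loaded bacterial siderophores. It lies at chr2:32384633-32388252 on the minus strand. In β-cells it stood at 2.75, 4.28 and 7.80 CPM in the 3 samples at 4 weeks and at 97.8, 97.6 and 101 CPM at 8 weeks. In non-β-cells the values were 2.26, 3.08 and 5.18 CPM at 4 weeks and 162, 125 and 164 CPM at 8 weeks. Every sample at 8 weeks was above every sample at 4 weeks in both fractions. The group means rose 20.0-fold in β-cells, from 4.94 ± 2.59 to 98.8 ± 1.95 CPM, and 42.9-fold in non-β-cells, from 3.51 ± 1.51 to 150 ± 22.4 CPM (SD, n = 3). On the log2 scale of the limma-voom fit the age change was 4.43 (SE 0.29) in β-cells and 5.54 (SE 0.33) in non-β-cells, and 4.80 and 5.86 without the 4-week replicates numbered 3. Within each fraction the 4-week replicate numbered 3 had the highest Lcn2 of its group.

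**Figure D1:**
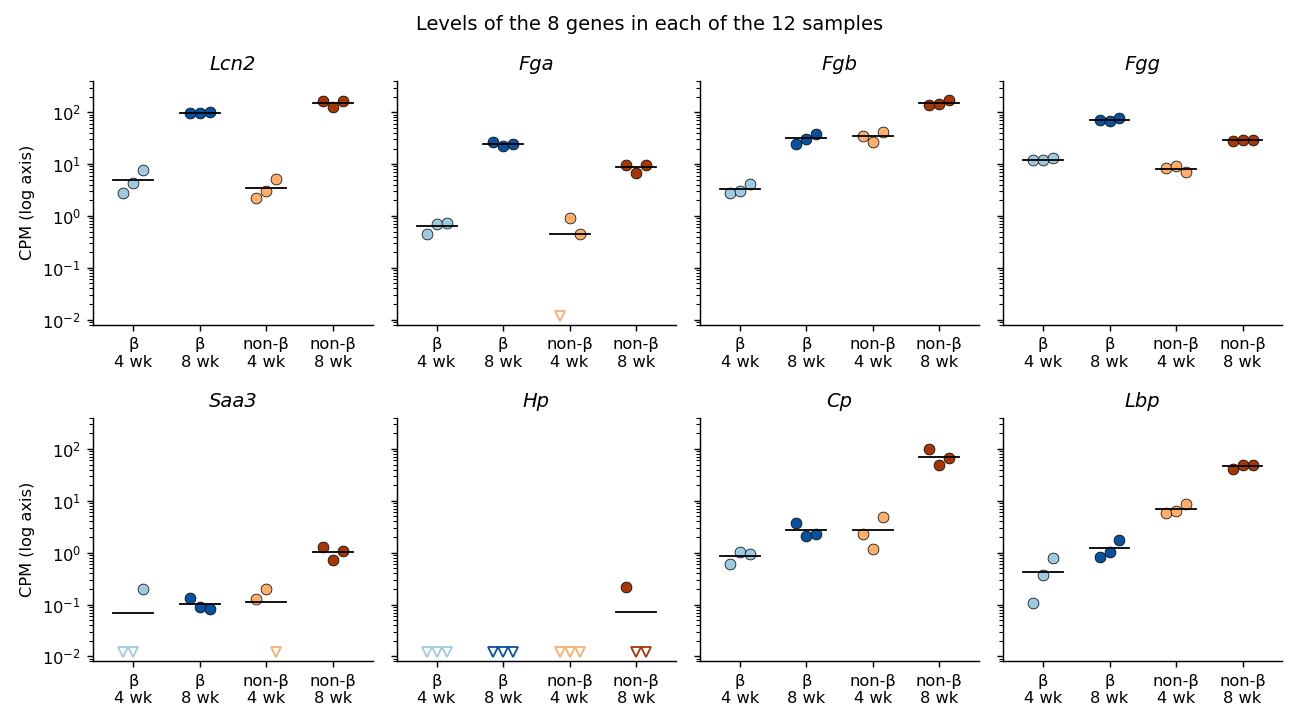
Level of each gene in the 12 samples, in CPM on a log axis, by cell fraction and age. Points are samples, horizontal bars are group means, and open triangles at the bottom are samples at or under 0.01 CPM. Lcn2 and the fibrinogen genes stood higher in all 8-week samples of both fractions, whereas Saa3 reached 1.03 CPM on average only in non-β-cells at 8 weeks and Hp was at 0 in 11 of the 12 samples.

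Fibrinogen is a clotting protein assembled from pairs of its α, β and γ chains, and a full molecule needs all of them. Fga, at chr3:83026076-83033627, was close to the limit of detection at 4 weeks. In β-cells its samples held 0.458, 0.713 and 0.734 CPM at 4 weeks and 26.4, 22.1 and 24.7 CPM at 8 weeks, a 38.4-fold rise of the means. In non-β-cells it had 0, 0.930 and 0.444 CPM at 4 weeks, from 28 counts in all, and 9.74, 6.65 and 9.56 CPM at 8 weeks. The ages did not overlap in either fraction. The log2 change was 5.22 (SE 0.63) in β-cells and 5.64 (SE 0.99) in non-β-cells. The non-β value turned on the library with 0 counts and was 3.68 without it, and it ranged from there to 6.72 over the alternatives. Without the 4-week replicates numbered 3 the changes were 5.32 and 6.28.

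Fgb, at chr3:83040141-83049863, was the fibrinogen gene most abundant in non-β-cells. Its β-cell samples stood at 2.75, 3.05 and 4.17 CPM at 4 weeks and 24.7, 30.4 and 38.6 CPM at 8 weeks, a 9.40-fold rise of the means. Its non-β-cell samples stood at 34.2, 26.8 and 42.4 CPM at 4 weeks and 137, 146 and 170 CPM at 8 weeks, a 4.38-fold rise. The 8-week β-cell samples and the 4-week non-β-cell samples overlapped, with means of 31.2 ± 7.00 and 34.5 ± 7.85 CPM (SD, n = 3). The log2 changes were 3.22 (SE 0.34) for β-cells and 2.15 (SE 0.17) for non-β-cells, and 3.40 and 2.31 without the 4-week replicates numbered 3.

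Fgg, at chr3:83007724-83015049, varied little between replicates. The β-cell samples measured 11.8, 11.9 and 13 CPM at 4 weeks and 69.4, 68.7 and 76.4 CPM at 8 weeks, a 5.84-fold rise of the means. In non-β-cells it measured 8.38, 9.20 and 6.90 CPM at 4 weeks and 28.4, 29.1 and 28.9 CPM at 8 weeks, a 3.53-fold rise. Unlike Fgb, it was higher in β-cells at each age, and the ages did not overlap in either fraction. The log2 changes were 2.54 (SE 0.12) for β-cells and 1.82 (SE 0.14) for non-β-cells, and 2.59 and 1.73 without the 4-week replicates numbered 3. Gm30097, annotated on the opposite strand over part of Fgg, was at 0 in all samples.

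Per kb of the longest annotated transcript, the chains were not present in equal amounts. In β-cells Fgg made up 86.4% ± 1.94 of the summed chain transcripts at 4 weeks and 70.0% ± 0.837 at 8 weeks (SD, n = 3). In non-β-cells Fgb made up 64.5% ± 8.73 at 4 weeks and 66.5% ± 2.28 at 8 weeks. In β-cells the Fga share was 3.00% ± 0.616 at 4 weeks and 16.1% ± 1.68 at 8 weeks, with no overlap between the ages. The Fgb share of β-cells was 10.6% ± 1.55 and 13.9% ± 2.26 at the same ages, with overlapping samples. In non-β-cells the Fga share was 0 to 2.84% at 4 weeks and 4.46 to 6.72% at 8 weeks. Every β-cell sample thus had more Fgg than Fgb per kb (Fgb over Fgg from 0.106 to 0.231), and every non-β-cell sample had more Fgb than Fgg (from 1.33 to 2.81).

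**Figure D2:**
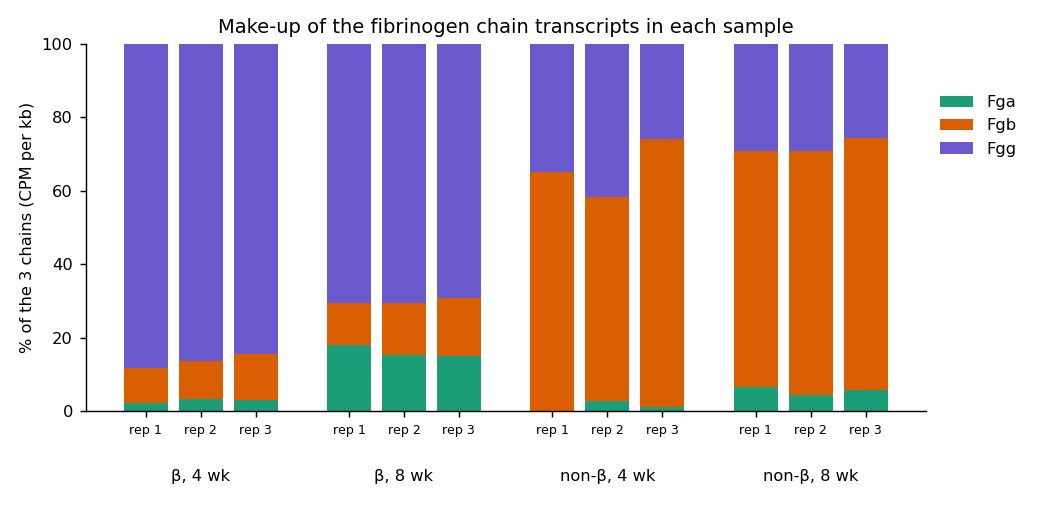
Share of each fibrinogen chain in the sum of the 3 chains, in percent of CPM per kb of the longest annotated transcript, one bar per sample. Fgg was the main chain in all 6 β-cell samples (69.0 to 88.3%) and Fgb in all 6 non-β-cell samples (55.5 to 72.9%).

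Cp encodes ceruloplasmin, the copper-carrying ferroxidase of plasma, and Lbp encodes the protein that hands bacterial lipopolysaccharide to CD14. Cp, at chr3:19957054-20009145, was mainly a non-β-cell transcript, with 2.30, 1.17 and 4.83 CPM at 4 weeks and 97.9, 49.5 and 66.5 CPM at 8 weeks in that fraction, a 25.8-fold rise of the means. In β-cells it was low at both ages, at 0.611, 1.03 and 0.963 CPM and then 3.75, 2.07 and 2.33 CPM. The log2 change was 4.88 (SE 0.49) in non-β-cells and 1.55 (SE 0.87) in β-cells, and without the 4-week replicates numbered 3 it was 5.35 and 1.62. Cp overlaps Hps3 on the opposite strand, which stood at 17.2 to 27.2 CPM at 4 weeks and 17.6 to 19.1 CPM at 8 weeks in non-β-cells and averaged 40.1 CPM at both ages in β-cells. Its part in the Cp counts was not tested, and the strand setting of the counting is not given in the sources used here.

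Lbp, at chr2:158306493-158332852, showed a similar division between the fractions. Non-β-cells held 5.92, 6.32 and 8.71 CPM at 4 weeks and 41.2, 50 and 49.9 CPM at 8 weeks, a 6.74-fold rise of the means. β-cells held 0.106, 0.365 and 0.786 CPM at 4 weeks and 0.840, 1.02 and 1.78 CPM at 8 weeks, or at most 44.35 estimated counts in a library. The log2 change was 2.77 (SE 0.19) in non-β-cells and 1.76 (SE 0.79) in β-cells, and 2.93 and 2.36 without the 4-week replicates numbered 3.

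The remaining acute-phase genes were barely detected. Saa3, at chr7:46711998-46715700, encodes a serum amyloid A made mainly outside the liver. In non-β-cells it had 3.398, 4.112 and 0.04346 estimated counts at 4 weeks and 30.08, 9.489 and 21.02 counts at 8 weeks, with means of 0.111 ± 0.101 and 1.03 ± 0.3 CPM (SD, n = 3). In β-cells it never exceeded 4.41 counts in a library. Hp, at chr8:109575128-109579172, encodes the hemoglobin-binding protein haptoglobin and had 0 counts in 11 of the 12 samples, the exception being 5 counts in non-β-cell replicate 1 at 8 weeks. Neither gene was tested.

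By the threshold used for all genes (adjusted p under 0.05, limma-voom), 4 of the 6 genes that passed the filter rose with age in β-cells (all 6 with edgeR and with DESeq2), beside 8.59% of the 15598 genes tested rising and 9.35% falling. In non-β-cells all 6 rose, beside 11.6% of all genes rising and 4.80% falling. In both fractions all 6 had every 8-week sample above every 4-week sample, beside 20.7% of all genes for β-cells and 19.0% for non-β-cells. The median log2 change of the 6 was 2.88 (β-cells) and 3.82 (non-β-cells), against 0.02 and 0.01 over all genes tested. Because the genes were chosen with these changes known, nothing is read from these counts. Cp and Lbp were the genes not past the threshold in β-cells by limma-voom.

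**Figure D3:**
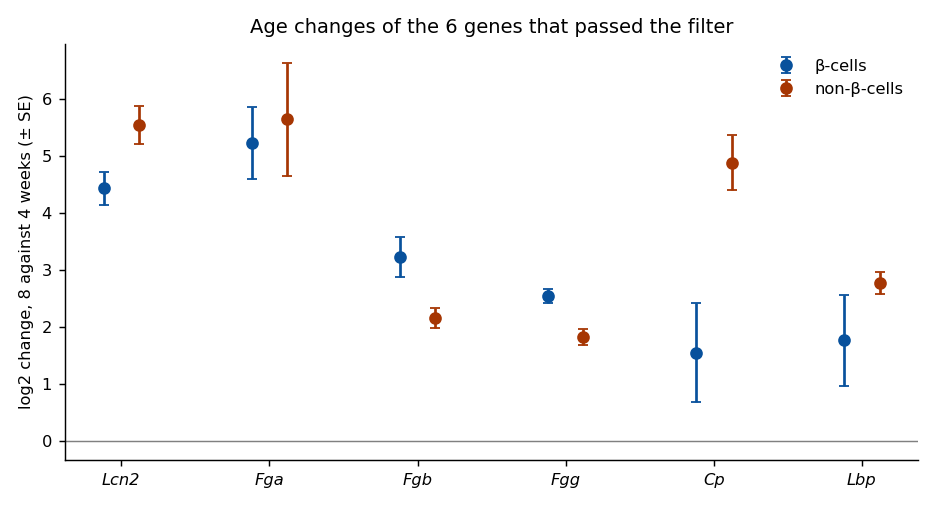
Change from 4 to 8 weeks within each fraction for the 6 genes that passed the filter, as the log2 change of the limma-voom fit with bars of 1 SE. Fgb and Fgg have the higher value in β-cells (3.22 and 2.54), Lcn2, Cp and Lbp in non-β-cells (5.54, 4.88 and 2.77), and the SE bars of Fga in the 2 fractions overlap.

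The interaction, the age change of β-cells less the one of non-β-cells, was 1.07 (SE 0.39) for Fgb and 0.72 (SE 0.19) for Fgg on the log2 scale, and was therefore larger in β-cells. It was -1.11 (SE 0.44) for Lcn2, -3.33 (SE 1.00) for Cp and -1.01 (SE 0.81) for Lbp, all larger in non-β-cells. For Fga it was -0.42 (SE 1.17), and its sign changed under several alternatives. Of the 6 genes, Fgg alone was past the threshold by limma-voom, while edgeR and DESeq2 each called 3, Fgb, Fgg and Cp. This stands beside 1.80% of all genes past it with the larger change in β-cells and 3.33% with the larger change in non-β-cells. Those were 800 genes in all. The differences of the 6 genes were known from the age changes that singled them out. They are given without p-values, and nothing is read from the calls.

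The comparison between the fractions at one age was not used in choosing the genes and was tested, with Lbp given as a description. It shares its samples with the age comparisons known at the choice, so its p-values are not fully independent of that choice. At 4 weeks Fgb was 10.4-fold higher in non-β-cells (log2 difference, β minus non-β, -3.36, SE 0.34, adjusted p = 5.53e-06, limma). Lbp was 16.7-fold higher in non-β-cells (log2 -4.30, SE 0.71). It passed the filter on low counts through the non-β-cell samples, all at or above 5.92 CPM. In β-cells it reached at most 0.786 CPM at 4 weeks and 1.78 CPM at 8 weeks. Its difference between the fractions is therefore a description at both ages, and its calls are counted but not read. Fgg was 1.5-fold higher in β-cells (log2 0.59, SE 0.16, adjusted p = 0.00711), a call that was lost without the 4-week replicates numbered 3 (adjusted p = 0.0525). Lcn2 did not pass the threshold at this age (log2 0.52, SE 0.42, adjusted p = 0.323), nor did Fga (log2 1.88, SE 1.15, adjusted p = 0.192). Cp missed the threshold by limma-voom (log2 -1.42, SE 0.89, adjusted p = 0.205) but passed it with edgeR (log2 -1.64, adjusted p = 0.0148) and DESeq2 (log2 -1.67, adjusted p = 0.000797). Thus 1 of the 6 genes was higher and 2 were lower in β-cells (1 and 3 with edgeR and with DESeq2), beside 24.9% of all genes higher and 23.7% lower. The lower ones include Lbp.

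At 8 weeks all 6 genes differed between the fractions, 2 being higher and 4 lower in β-cells, beside 23.6% of all genes higher and 25.6% lower. The 4 lower include Lbp, which passed the filter through the non-β-cell samples and is a description only. Fga was 2.82-fold higher in β-cells (log2 1.46, SE 0.23, adjusted p = 0.000178) and Fgg 2.48-fold higher (log2 1.31, SE 0.10, adjusted p = 4.22e-07). Fgb was 4.83-fold higher in non-β-cells (log2 -2.29, SE 0.17, adjusted p = 3.01e-07), Cp 26.2-fold (log2 -4.75, SE 0.44, adjusted p = 1.9e-06) and Lbp 38.8-fold (log2 -5.31, SE 0.40). Lcn2 was 1.52-fold higher in non-β-cells (log2 -0.60, SE 0.16, adjusted p = 0.0073). That call was lost with edgeR and with DESeq2, the adjusted p over all alternatives running from 4.67e-05 to 0.0974. The 2 genes higher in β-cells and the 4 lower had no overlap between the fractions at this age, beside 32.5% of all genes with every β-cell sample above and 32.4% with every β-cell sample below the non-β-cell samples.

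Per kb of transcript, the order of levels differed between the groups. In β-cells at 4 weeks Fgg led (7.03 ± 0.382 CPM per kb), followed by Lcn2 (3.6 ± 1.88) and Fgb (0.872 ± 0.196), while Fga, Cp and Lbp overlapped with each other below 0.4 CPM per kb. In β-cells at 8 weeks Lcn2 led (71.9 ± 1.39), ahead of Fgg (41.1 ± 2.45), and then of Fga (9.43 ± 0.837) and Fgb (8.20 ± 1.83), which overlapped. In non-β-cells at 4 weeks the order was Fgb (9.05 ± 2.05) and Fgg (4.69 ± 0.670), followed by Lbp (2.77 ± 0.597) and Lcn2 (2.55 ± 1.10), which overlapped. In non-β-cells at 8 weeks Lcn2 again led (109 ± 16.0), ahead of Fgb (39.6 ± 4.48), with Lbp, Fgg and Cp overlapping between 10.8 and 21.5 CPM per kb (SD, n = 3 throughout).

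Across the 12 samples the genes fell into different patterns of log2 CPM. Fga followed Fgg (Pearson r = 0.94) and Lcn2 (r = 0.92), and Fgb followed Lbp (r = 0.91) and Cp (r = 0.86), whereas r was 0.35 for Fgb and Fgg and 0.01 for Fgg and Lbp, pairs of genes that rose with age within each fraction but stood higher in opposite fractions. These values are descriptive, since the 12 points share 4 groups. Among 10168 other genes with a symbol and a mean log2 CPM of at least 3, those most like Lcn2 were Bcl3 (r = 0.983), which encodes an IκB family protein, Cfb (r = 0.969), which encodes complement factor B, the immunoproteasome gene Psmb8 (r = 0.953), the interferon-inducible GTPase Igtp (r = 0.953) and the class I gene H2-D1 (r = 0.947). Mean Bcl3 was 52.0 and 108 CPM in β-cells at 4 and 8 weeks and 49.7 and 116 CPM in non-β-cells. Those most like Fgb were Fbp1 (r = 0.986), which encodes fructose-1,6-bisphosphatase, Mr1 (r = 0.978), 4930539E08Rik (r = 0.977), Cd14 (r = 0.977) and Gm42372 (r = 0.976). Mean Fbp1 was 4.97 and 27 CPM in β-cells at the 2 ages and 22.8 and 65.6 CPM in non-β-cells.

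Some marker lists of other cell types also rose with age, not all of them in both fractions. The counts of markers called stand beside 11.6% of all tested genes rising and 4.80% falling in non-β-cells. In β-cells these shares were 8.59% and 9.35%. In non-β-cells the summed endothelial markers were 40.1 to 75.6 CPM at 4 weeks and 288 to 790 CPM at 8 weeks, and all 6 markers rose. The mesenchymal markers summed to 78.7 to 249 CPM and then to 537 to 831 CPM, and all 7 rose (5 with edgeR and 6 with DESeq2). In β-cells the mesenchymal sum was 3.15 to 12.3 CPM at 4 weeks and 19.3 to 42.4 CPM at 8 weeks. By limma-voom 0 of these 7 markers were called there (2 with edgeR and 3 with DESeq2). The endothelial sums of β-cells overlapped between the ages, at 5.83 to 14.6 CPM and then 11.5 to 15.7 CPM. Of the 6 endothelial markers 0 were called in β-cells (1 with edgeR and with DESeq2). β-cell markers in the non-β fraction summed to 2850 to 3980 CPM and then to 4900 to 5810 CPM. Of 8 duct-cell markers, 5 rose in non-β-cells, namely Krt19, Sox9, Cftr, Muc1 and Mmp7. The sum of all 8, most of it Krt7 and Epcam, was 659 to 826 CPM at 4 weeks and 867 to 940 CPM at 8 weeks. In β-cells 2 of the 8 rose and 1 fell (3 and 1 with edgeR and with DESeq2), with sums of 1190 to 1580 CPM and then 1040 to 1110 CPM. Acinar markers went from 34.3 to 98 CPM at 4 weeks to 217 to 878 CPM at 8 weeks in non-β-cells, and from 103 to 223 CPM to 488 to 1020 CPM in β-cells. Of 9 tested acinar markers, limma-voom called 3 as rising in non-β-cells and 5 in β-cells (8 and 4 with edgeR, 8 and 2 with DESeq2). The 8-week non-β-cell replicate 1 had the highest acinar and endothelial sums of its group and also the highest Cp and Saa3. Without it the log2 change of Cp in non-β-cells was 4.61 and that of Lcn2 was 5.48. The part of these cells in the rises was not tested, and in bulk samples more cells of a type and more RNA per cell cannot be told apart.

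Neutrophils store lipocalin 2. Their markers summed to 0 to 0.0509 CPM at 4 weeks and 0.648 to 2.53 CPM at 8 weeks in β-cells, and to 0 and then 0.224 to 0.952 CPM in non-β-cells, with no overlap between the ages. Most of this was S100a9, which averaged 1.59 CPM in β-cells at 8 weeks, while Ngp, Mpo, Elane, Csf3r and Ly6g were at 0 in all samples. The part of neutrophil RNA in the Lcn2 rise was not tested. Leukocyte markers summed to 51.7 to 77.6 CPM in β-cells and to 8.70 to 20.7 CPM in non-β-cells, nearly all of it Cd68, a lysosomal gene that rose in both fractions. Ptprc, which encodes CD45, averaged at most 0.454 CPM in a group. Hepatocyte markers, among them Alb, summed to 0.601 to 4.45 CPM, with overlapping ages in both fractions.

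**Figure D4:**
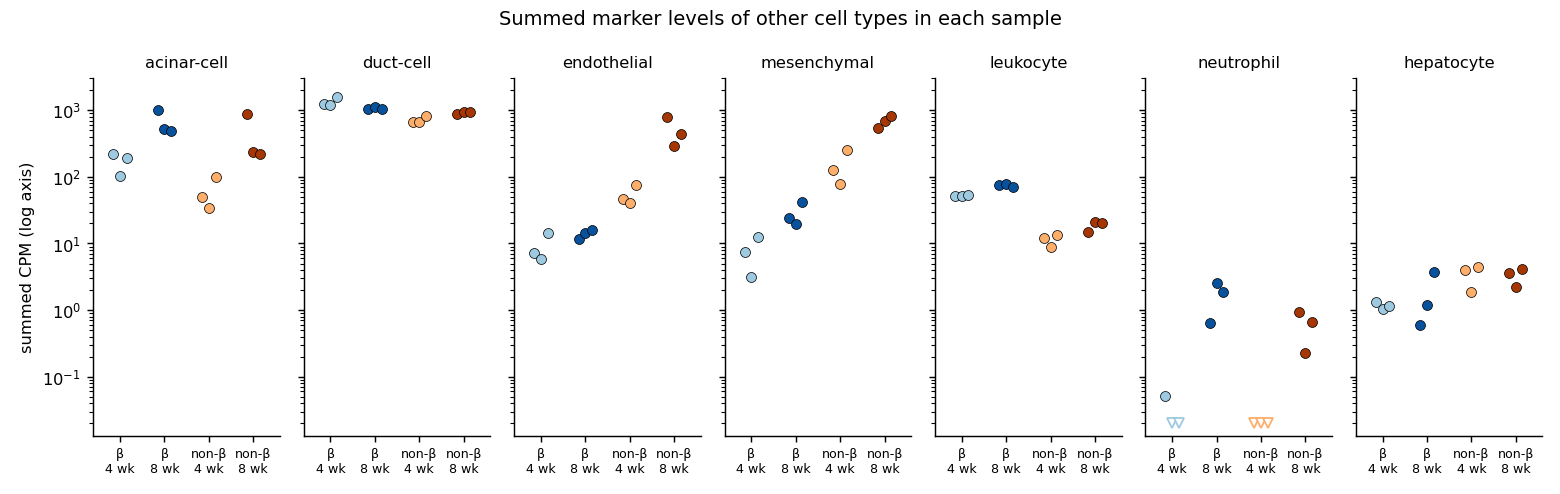
Summed CPM of each marker list in each sample, on a log axis, by fraction and age. Points are samples and open triangles are samples with a sum of 0. Endothelial and mesenchymal sums stand highest in the 3 non-β-cell samples at 8 weeks, and neutrophil sums stay at or below 2.53 CPM in all samples.

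The cytokines that drive the hepatic response were measured in the same samples. The gene lists given here and below were also chosen with earlier results of these data known. Their age p-values are therefore not independent of that choice. The counts stand beside 8.59% of all tested genes rising and 9.35% falling in β-cells, and 11.6% rising and 4.8% falling in non-β-cells. Of 8 IL-6 family ligands, 5 were tested, and 4 rose in non-β-cells and 2 in β-cells (4 with edgeR and with DESeq2), with median log2 changes of 3.27 and 1.57. Il11 went from 12.2 ± 7.72 to 124 ± 42.9 CPM in non-β-cells (log2 change 3.50, SE 0.35, adjusted p = 1.99e-05, limma), Il6 from 3.54 ± 2.09 to 34.2 ± 12.0 CPM (3.43, SE 0.51, adjusted p = 0.000411) and Lif from 9.63 ± 2.43 to 90.6 ± 14.1 CPM (3.27, SE 0.19, adjusted p = 3.11e-07). In β-cells Il6 averaged at most 1.23 CPM (log2 3.36, SE 2.34, adjusted p = 0.356). It passed with edgeR (adjusted p = 0.0363) and DESeq2 (0.00489). Il11 went from 0.653 ± 0.0679 to 5.71 ± 2.68 CPM in β-cells (2.98, SE 1.18, adjusted p = 0.103). It passed with edgeR (0.00243), with DESeq2 (5.53e-10) and with the 2 groups fitted alone (0.0236). Lif rose in β-cells by 1.57 (SE 0.35, adjusted p = 0.00861) and Ctf1, which encodes cardiotrophin 1, by 1.22 (SE 0.33, adjusted p = 0.0222).

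Their receptors and kinases moved little. By limma-voom 0 of the 9 genes were called in β-cells, also at an unadjusted p under 0.05, while edgeR and DESeq2 each called 1, Osmr. In non-β-cells 2 rose (1 also fell with DESeq2, Il6ra), and the median log2 change was 0.17 and 0.13 in the fractions. Those were Osmr, the oncostatin M receptor, from 3.34 ± 1.45 to 27.9 ± 8.58 CPM (log2 3.15, SE 0.34, adjusted p = 3.8e-05), and Jak1 (0.48, SE 0.13, adjusted p = 0.0197). Il6st, which encodes gp130, stood at 239 to 291 CPM in the 4 group means (adjusted p = 0.297 for β-cells, 0.957 for non-β-cells), and Il6ra was not past it in β-cells (log2 0.17, adjusted p = 0.490). In non-β-cells Il6ra had a log2 change of -0.46 (adjusted p = 0.0535), which passed with DESeq2 (adjusted p = 0.0391), with the 2 groups fitted alone (0.0493), without the 4-week replicate numbered 3 of its fraction (0.0295) and without those of both fractions (0.00297).

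Of 11 STAT3 and C/EBP factors and inhibitors, 4 rose and 1 fell in β-cells, and 5 rose and 2 fell in non-β-cells (4 and 1 with edgeR), with median log2 changes of 0.24 and 0.36. Cebpd went from 22.0 ± 7.79 to 95.7 ± 3.84 CPM in β-cells (log2 2.17, SE 0.20, adjusted p = 1.65e-05) and from 29.3 ± 3.78 to 74.4 ± 14.3 CPM in non-β-cells (1.33, SE 0.20, adjusted p = 0.000415). Socs3, a feedback inhibitor of this pathway, rose by 1.52 (SE 0.15, adjusted p = 2.23e-05) in β-cells and 0.60 (SE 0.14, adjusted p = 0.00821) in non-β-cells, and Stat3 itself by 0.57 (adjusted p = 0.00204) and 0.36 (adjusted p = 0.0258). Cebpa rose in non-β-cells from 1.53 ± 1.44 to 8.88 ± 0.832 CPM (log2 4.04, adjusted p = 0.0180, limma). That call was lost with edgeR (log2 2.53, adjusted p = 0.0627), with the 2 groups fitted alone (4.03, 0.0519) and with a replicate block (2.45, 0.0621). Cebpg fell in both fractions (log2 -0.46, adjusted p = 0.0141, and -1.21, adjusted p = 1.61e-05), and Cebpb fell in non-β-cells by limma-voom (log2 -0.52, adjusted p = 0.0388), with -0.14 in β-cells (adjusted p = 0.569). The call of Cebpb was lost with edgeR (adjusted p = 0.058) and without any of 5 single samples, the change being -0.346 (adjusted p = 0.18) without replicate 1 of the 8-week non-β-cells.

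Of 20 IL-1, TNF and NF-κB genes, 19 were tested, of which 12 rose and 0 fell in non-β-cells by limma-voom (14 and 0 at an unadjusted p under 0.05, 13 and 0 with edgeR and with DESeq2), and 4 rose and 2 fell in β-cells. The median log2 change was 0.80 in the non-β and 0.11 in the β fraction. Nfkbiz, which encodes IκBζ, a cofactor known to be needed for Lcn2 induction in other cells, rose from 39.8 ± 4.14 to 99.0 ± 5.27 CPM in β-cells (log2 1.32, SE 0.11, adjusted p = 7.87e-06) and from 118 ± 12.1 to 375 ± 17.4 CPM in non-β-cells (1.67, SE 0.11, adjusted p = 5.21e-07). The feedback inhibitors Tnfaip3 and Nfkbia rose by 0.98 and 0.87 in β-cells (adjusted p = 0.00185 and 0.00436) against 2.82 and 2.79 in the non-β fraction (adjusted p = 7.68e-08 and 3.9e-07). Rela, the p65 subunit, fell in β-cells (log2 -0.93, adjusted p = 0.000382) and rose in non-β-cells (0.67, adjusted p = 0.00259), and the receptor kinase gene Irak2 likewise (-0.84, adjusted p = 0.00679, and 1.08, adjusted p = 0.00642). Il1r1 and Nfkb1 rose in non-β-cells (0.83 and 0.55, adjusted p = 0.000954 and 0.00325), with values of 0.11 and 0.08 in β-cells (adjusted p = 0.619 and 0.646). Tnf went from 0.0292 to 5.89 CPM in non-β-cells (adjusted p = 0.000368).

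Among 30 other positive acute-phase genes, 15 were tested. In β-cells 5 rose and 1 fell, beside 8.59% and 9.35% of all genes, and in non-β-cells 9 rose, beside 11.6%. The median log2 change was 0.94 (β-cells) and 1.63 (non-β-cells). Steap4, an inflammation-induced metalloreductase, went from 0.405 ± 0.173 to 14.6 ± 0.677 CPM in β-cells (log2 5.13, SE 0.68, adjusted p = 0.000244) and from 1.58 ± 1.28 to 92.6 ± 6.40 CPM in non-β-cells (6.22, SE 0.42, adjusted p = 9.84e-07). Serpina3n, a serine protease inhibitor, rose by 1.51 (SE 0.13, adjusted p = 6.95e-06) and 1.89 (SE 0.13, adjusted p = 1.11e-06), from means of 140 and 62.7 CPM at 4 weeks. Hamp, which encodes hepcidin, rose in both (3.38, adjusted p = 0.0172, and 1.86, adjusted p = 0.00114). Ltf, which encodes lactoferrin, was past the threshold in both (adjusted p = 0.0288 and 0.00837) at no more than 1.93 CPM in a group mean. Crp, which encodes C-reactive protein, was at 5.90 ± 3.63 CPM in non-β-cells at 8 weeks (adjusted p = 0.0244), a call lost under 5 alternatives (adjusted p from 0.0505 to 0.0999). In β-cells Crp was not called by limma-voom (adjusted p = 0.287) but was by edgeR (0.0492) and DESeq2 (0.011). The liver-type genes Saa1, Saa2, Orm1, Orm2, Orm3, Itih3 and Itih4 were not tested, with group means at or below 0.352 CPM.

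Of 9 genes that fall in the hepatic response, 5 were tested, with median log2 changes of -1.16 in β-cells and -0.04 in the other fraction. Ttr, also among the α-cell markers, and Rbp4 fell in β-cells (log2 -1.25 and -0.72, adjusted p = 0.000975 and 0.0476), with values of -0.26 and -0.35 in the non-β fraction (adjusted p = 0.461 and 0.319), beside the fall of α-cell markers in the β fraction. The Rbp4 call was lost under 7 alternatives (adjusted p from 0.0722 to 0.16), and its change was -0.442 without the 4-week β-cell replicate numbered 3. Trf, which encodes transferrin, rose in non-β-cells from 8.35 ± 1.27 to 56.9 ± 5.24 CPM (log2 2.78, SE 0.20, adjusted p = 1.71e-06).

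Partners of these proteins were the last list, with 18 of 24 genes tested, of which 5 rose and 1 fell in β-cells and 9 rose and 1 fell in non-β-cells (median log2 changes 0.35 and 0.41). Cd14, which receives lipopolysaccharide from the Lbp protein, went from 1.5 ± 0.658 to 6.95 ± 1.2 CPM in β-cells (log2 2.26, SE 0.55, adjusted p = 0.0139) and from 12.1 ± 4.89 to 47.9 ± 7.82 CPM in non-β-cells (2.10, SE 0.23, adjusted p = 3.94e-05). Slc22a17, a lipocalin 2 receptor, rose by 0.66 (adjusted p = 0.00435) and 0.40 (adjusted p = 0.0350). The fibrinogen-like genes Fgl1 and Fgl2 rose in both fractions (1.46 and 0.81 in β-cells, adjusted p = 0.0496 and 0.000248, then 1.48 and 0.36 for non-β-cells, adjusted p = 0.000317 and 0.0297). Plau, which encodes urokinase, rose in non-β-cells (3.29, SE 0.29, adjusted p = 7.35e-06), as did Mmp9 (8.55, adjusted p = 0.0460). In β-cells the Mmp9 change was 5.27, not called by limma-voom (adjusted p = 0.231) but past the threshold under 5 alternatives (adjusted p from 0.00992 to 0.04). Of the iron genes, Slc40a1, the exporter ferroportin, was not past the threshold in either fraction (0.30, adjusted p = 0.0961, and -0.18, adjusted p = 0.306), and Tfrc, the transferrin receptor, fell in non-β-cells (-0.57, adjusted p = 0.0110). Scarb1, a receptor for serum amyloid A, fell in β-cells (-1.02, adjusted p = 8.27e-05).

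**Figure D5:**
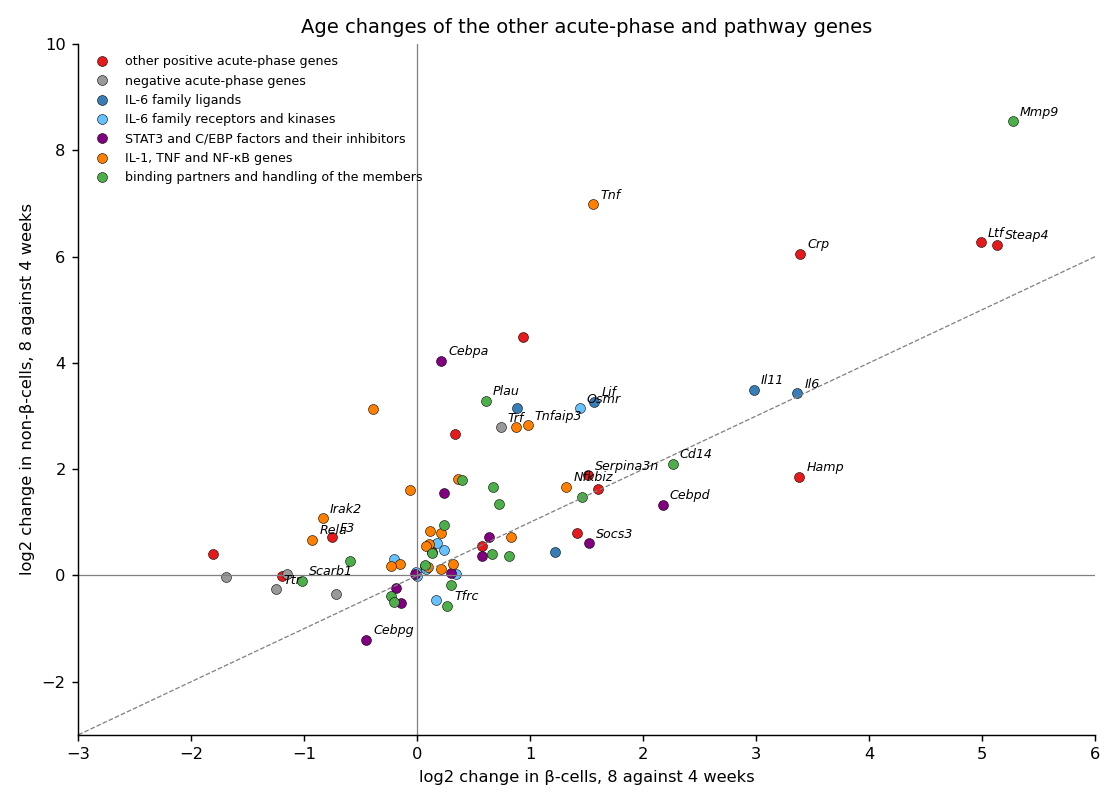
Log2 change from 4 to 8 weeks in β-cells (horizontal) and in non-β-cells (vertical) for the tested genes of the other lists, colored by list, with equal change on the dashed line. Points include genes not past the threshold. Tnfaip3, Lif, Plau and Tnf lie above the line, and Cebpd, Socs3 and Hamp below it, while Steap4 rose by more than 5 log2 units in both fractions.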

How the data were processed

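RNA of the 12 sorted samples was sequenced as 100-base single-end reads from a strand-specific total RNA kit. The authors trimmed reads with fastp, assigned them to Ensembl release 98 transcripts (GRCm38) with kallisto and summed them to genes with tximport, and they deposited estimated counts per gene, unscaled. Tool versions and the strand setting are not given in the sources used here. From 13.9% to 19.3% of values were not whole, and counts were rounded. Symbols (51916 of 52962 genes) and coordinates came from GENCODE M21.

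Genes with CPM above 1 in at least 3 samples (15598) were tested by limma-voom (limma 3.58.1, R 4.3.3) after TMM scaling (edgeR 4.0.16), as in the study's methods, with one mean per group, two-sided tests and Benjamini-Hochberg adjustment over all tested genes at 0.05. CPM are TMM-scaled and log2 CPM had a prior count of 2. The code was tested on simulated counts.

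The members and all lists were chosen with earlier results of these data known. Named beside the 8 genes were, in each list, up to 3 genes with the largest rise and fall past the threshold in each age comparison, 15 genes given in any case, and the 5 genes most correlated with Lcn2 and with Fgb. Alternatives were DESeq2 1.42.0, the quasi-likelihood test of edgeR, other filters and scalings, the groups compared alone, a replicate block, and omission of samples. The values of 1 gene that this rule would name are not reported here.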

Additional observations from a re-analysis of the deposited data

Results flagged for a closer look

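For 11 genes of the other lists the age change differed between the fractions by the test of the difference itself (age change of β-cells less the one of non-β-cells, log2, limma-voom, adjusted over all genes tested). No explanation was tested for any of them.

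The change was more positive in non-β-cells for 8 genes. Rela had a difference of -1.60 (SE 0.18, adjusted p = 0.000248), Irak2 of -1.91 (SE 0.30, adjusted p = 0.00238) and F3, which encodes tissue factor, of -1.48 (SE 0.26, adjusted p = 0.00525), and all of these fell in β-cells and rose in non-β-cells. Tnfaip3 had -1.85 (SE 0.22, adjusted p = 0.00029), Nfkbia -1.92 (SE 0.24, adjusted p = 0.000518) and Lif -1.70 (SE 0.40, adjusted p = 0.0269), each rising in both fractions. Plau had -2.68 (SE 0.66, adjusted p = 0.0344) and Scarb1 -0.92 (SE 0.16, adjusted p = 0.00516).

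The change was more positive in β-cells for Socs3 (0.91, SE 0.20, adjusted p = 0.0194), which rose in both fractions, for Cebpg (0.76, SE 0.16, adjusted p = 0.0172), which fell in both, and for Tfrc (0.83, SE 0.19, adjusted p = 0.0214). Leaving out each of the 12 samples in turn, the call was lost 9 times for Plau (adjusted p up to 0.129), 6 times for Lif (up to 0.107), 5 times for Tfrc (up to 0.0659), 4 times for Socs3 (up to 0.0644) and 2 times for Cebpg (up to 0.057). The other 6 genes kept their call in each of these fits. These highest values came without β-cell replicates 2 (Plau), 3 (Lif) and 1 (Socs3) at 4 weeks, β-cell replicate 3 at 8 weeks (Tfrc) and non-β-cell replicate 3 at 8 weeks (Cebpg), and the direction did not change for any of the 11 genes. No level of the 8 genes could be judged for a sample far from its group, because groups of 3 are too small for that test.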

How the results depend on the processing

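Of 1803 values of single genes under the alternatives, 1649 kept their direction and, for tested values, their side of the threshold. A further 110 were no longer past it, 24 came past it and 14 turned in sign. Age changes and interactions of the members were untested and were judged by direction and size of shift only. Of these, 6 moved by more than the SD of log2 CPM within their groups. Leaving out each sample in turn, the age comparison called 1684 to 2495 genes in β-cells (2799 with all samples; 1717, 1701 and 1684 without β-cell replicate 1, 2 or 3 at 8 weeks) and 1906 to 2320 in non-β-cells (2561), the fractions differed in 6454 to 7806 genes at 4 weeks (7570) and 6378 to 7032 at 8 weeks (7679), and the interaction called 450 to 984 (800). The lowest interaction count, 450, was without β-cell replicate 2 at 8 weeks. The cause of these shifts was not tested beyond the loss of a sample.

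The interaction called 1562 genes with DESeq2 and 1455 without both 4-week replicates numbered 3. The labels give replicate numbers only. Same-numbered samples' deviations from their group means correlated at 0.08, 0.13 and 0.31 between the fractions at 4 weeks over all 15598 tested genes, so not every pair was over 0.1. Over the 10280 genes with mean log2 CPM of at least 3, a set added after that, the values were 0.29, 0.43 and 0.67, and in neither set did every sample correlate best with its own number. Pairing was therefore not taken as shown. Under a block for the replicate number the interaction called 1879 genes, the fractions differed in 9005 genes at 4 weeks and 8945 at 8 weeks, and the age comparisons called 2593 and 2341. Among the members the block added the call of Cp at 4 weeks. It also put Lcn2, Fgb and Cp past the threshold for the interaction. Nothing is read from the latter, since the genes were chosen with their age changes known. Elsewhere under the block, Il11 and Mmp9 came past the threshold in β-cells and Il6ra in non-β-cells, and Fgl1 (β-cells), Cebpa, Fgl2, Stat3 and Slc22a17 (non-β-cells) no longer passed it.

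Values that turned in sign were near 0 or rested on few counts. The interaction of Fga (-0.42) was 0.939 with edgeR, 0.943 with DESeq2, 0.882 with the block and -1.506 to 1.508 when each sample was left out in turn. The highest value came without non-β-cell replicate 1 at 4 weeks, the library with 0 counts. Its difference between the fractions at 4 weeks was -0.028 to 2.968, the lowest without the same library. Leaving out each sample in turn, the age change in β-cells was -0.113 to 0.641 for Cebpa, -0.282 to 0.015 for Cebpb and -0.029 to 0.177 for Il1r1, and that of Il6st in non-β-cells -0.141 to 0.117. Without both 4-week replicates numbered 3 it was 0.013 for Cebpb, -0.03 for Il1r1 and -0.139 for Il6st. The age change of Fga in non-β-cells was 4.30 with edgeR, 4.31 with DESeq2 and 3.68 without the library with 0 counts. At 13755106 to 27040652 counts, Saa3 and Hp stayed under the filter. The β-cell changes of Cp and Lbp were called by edgeR and DESeq2 but not by limma-voom, and nothing is read from these calls. Calls lost under several alternatives, besides those given with the genes, were those of Fgl1 and Ctf1 in β-cells (9 and 4 alternatives, adjusted p up to 0.175 and 0.0969), Ltf in β-cells (6, up to 0.102), and Stat3, Slc22a17, Fgl2, Mmp9 and Jak1 in non-β-cells (7, 7, 7, 6 and 4, up to 0.11, 0.12, 0.0976, 0.151 and 0.0725). Slc40a1 passed in non-β-cells without both 4-week replicates numbered 3 (adjusted p = 0.0271).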
